A study of Mus musculus with 6 samples.

Results

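Genes of the Toll-like receptor and NF-kappaB pathway were examined in p53 null mammary epithelial cells (MECs) after transient exposure to tamoxifen. The list holds 51 genes chosen by name, from the receptors to the targets, with earlier results of these data known. Of them, 45 are represented here by a probeset that the array annotation assigns to that gene alone, out of 17418 genes with such a probeset. Each of the 45 has 1 such probeset. Ticam2, Irak4, Traf3, Nfkb1, Relb and Ptgs1 were not analysed here. Mammary duct from p53 null Balb/c donors of 8 weeks was grown in cleared fat pads of Balb/c mice with normal p53, which keep their own stroma and immune cells, and MECs were freed from the outgrowths with collagenase after the lymph nodes had been taken out. The tamoxifen group had carried a 5 mg tamoxifen pellet for 13 weeks and was collected 4 weeks after it was removed, and the control group had carried a sham pellet. By the labels the hosts were 8 weeks old when the pellet was placed, whereas the study's methods place it 8 weeks after transplantation, in older hosts. Mice of both groups were given 100 ug of 17-beta-estradiol (E2) 8 h before collection. Each group has 3 arrays, 1 for each pool of several mice, and the values are linear probeset intensities as deposited, compared here on the log2 scale.

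Toll-like receptors sense microbial products and debris of injured cells, at the cell surface or in endosomes. They signal through the adaptors MyD88 and TRIF to IRAK kinases and TRAF ubiquitin ligases, and on to the IkB kinase complex, which marks the IkB proteins for degradation and so frees NF-kappaB dimers to enter the nucleus. NF-kappaB then induces inflammatory genes together with its own inhibitors, so that transcripts of the inhibitors are commonly read as targets of the pathway. In the mammary gland the pathway is known from branching, involution and mastitis, and it works in epithelium, macrophages, lymphocytes and vessels alike, so that bulk MEC RNA cannot tell fewer cells of a type from less RNA per cell.

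The 7 measured IkB and feedback genes and the 5 measured targets all had a positive log2 fold change after tamoxifen, although the groups overlapped in Nfkbie, Birc3, Ptgs2 and Saa3. Receptors, adaptors and cytosolic sensors had log2 fold changes of both signs, and the difference between roles was not tested. None of the 45 genes passed an adjusted p of 0.05 by limma (0 higher and 0 lower, beside 0.282% of all 22369 probesets called higher and 0.107% called lower), and the methods' t-test likewise gave 0 and 0. At an unadjusted p under 0.05, limma had 9 genes higher, beside 6.55% of all probesets, and 1 lower, beside 5.87%. These were Olr1, Tnfaip3, Nfkbia, Nfkbiz, Nfkbib, Ptges, Nos2, Irak3 and Irak2, and on the lower side Tlr4, and the methods' t-test had 11 and 1. The 3 tamoxifen pools all lay above the 3 control pools in 14 of the 45 (31.1%), beside 9.79% of all probesets, and all below in 1, beside 11.2%. A positive log2 fold change was found in 31 (68.9%), beside 44.8% of all probesets, and the median was 0.10 beside -0.02 over all genes. Since genes and roles were chosen with earlier results of these data known, these shares only describe the list. Olr1, Tnfaip3, Nfkbia, Nfkbiz, Ptges and Tlr4 stayed under that unadjusted 0.05 with each of the 6 pools left out in turn, Nos2 in 5 of these 6 fits, Irak3 in 3, Irak2 in 2 and Nfkbib in 0. For any 1 gene, exact permutation of 3 and 3 pools gives no p below 0.1. The p-values quoted are two-sided and from limma, with Benjamini-Hochberg adjustment across the probesets. The plot of every gene in every pool shows these shifts beside the spread between pools.

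**Figure D1:**
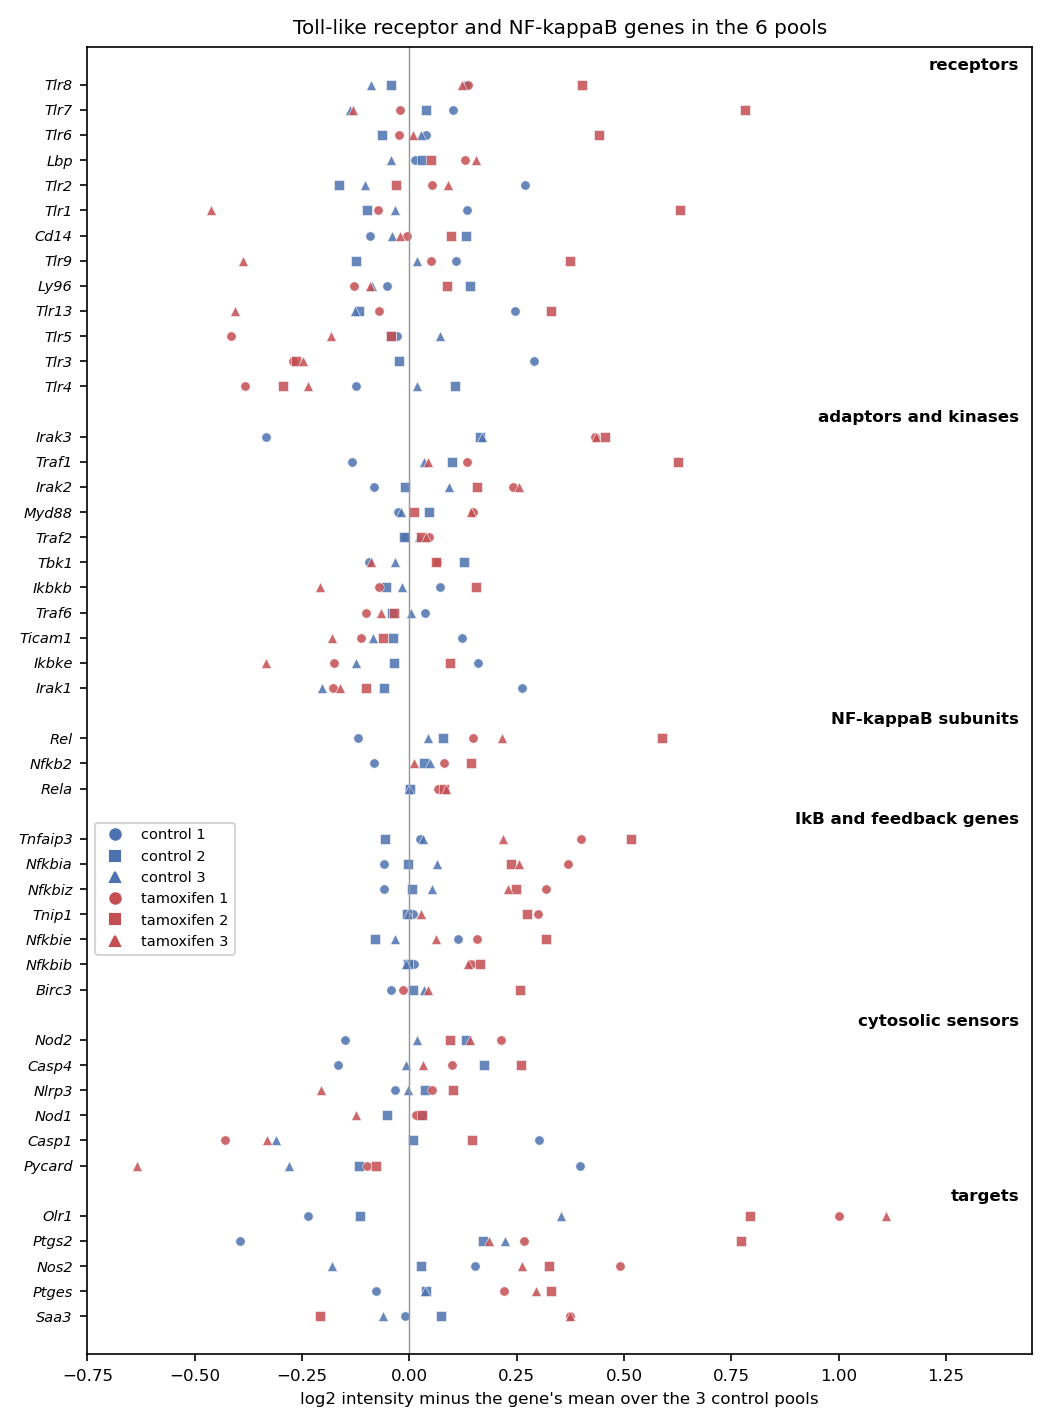
Log2 intensity of the 45 genes in each of the 6 pools, minus the mean of that gene over the 3 control pools (x axis, log2 units), with genes ordered by log2 fold change within each role. Blue symbols are control pools and red symbols tamoxifen pools, and the tamoxifen pools of Olr1, Nfkbia, Nfkbiz and Ptges lie wholly to the right of the controls, while those of most receptors straddle them.

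Among the receptors, Tlr4, which senses bacterial lipopolysaccharide, was the only one at an unadjusted p under 0.05. Its intensity was 684, 802 and 755 in control pools 1, 2 and 3 and 572, 608 and 633 in tamoxifen pools 1, 2 and 3. Every tamoxifen pool lay below every control pool, and the log2 fold change was -0.30 (SE 0.09, unadjusted p = 0.0116, adjusted p = 0.258 from limma), with a range of -0.37 to -0.25 when 1 pool was left out. Transcripts of its partners overlapped between the groups, and the difference from Tlr4 was not tested. Cd14, the surface co-receptor, was at 2249, 2629 and 2331 in controls and 2387, 2566 and 2361 after tamoxifen. Ly96, which encodes the partner that binds the lipid in the receptor complex, was at 2611, 2987 and 2548 in controls and 2478, 2880 and 2541 after tamoxifen. The 95% interval of the log2 fold change was -0.18 to 0.23 for Cd14 and -0.28 to 0.19 for Ly96. Lbp, a secreted carrier of lipopolysaccharide, was at 2412, 2438 and 2322 in controls and 2615, 2475 and 2663 after tamoxifen, so its groups did not overlap and the log2 fold change was 0.11 (unadjusted p = 0.142, adjusted p = 0.564).

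Tlr3, a sensor of double-stranded RNA, was at 1012, 813 and 688 in controls and at 686, 689 and 697 after tamoxifen. The tamoxifen pools were alike and overlapped only control 3, and without control 1 the log2 fold change of -0.26 became -0.11. Tlr2, the lipoprotein receptor that pairs with the products of Tlr1 and Tlr6, was at 539, 399 and 416 in controls and 464, 438 and 476 after tamoxifen (log2 fold change 0.04).
In 6 further receptors tamoxifen 2 was the highest of all pools. Tlr7, a sensor of single-stranded RNA, was at 208, 199 and 176 in controls and at 191, 333 and 177 after tamoxifen, and apart from tamoxifen 2 the tamoxifen pools lay within the control range. The log2 fold change of Tlr7 was 0.21 with an interval of -0.38 to 0.79, and -0.08 without tamoxifen 2. Tlr1 was at 254, 216 and 226 in controls and at 220, 358 and 168 after tamoxifen, so that its highest and lowest values were both tamoxifen pools. Tlr9, which senses unmethylated CpG DNA, had 282, 240 and 265 in controls and 271, 339 and 200 after tamoxifen, and Tlr13, a mouse sensor of bacterial ribosomal RNA, had 198, 154 and 153 against 159, 210 and 126. Tlr6 and Tlr8 were likewise highest in tamoxifen 2, at 98.2 and 77.9, and had log2 fold changes of 0.14 and 0.22, or -0.01 and 0.13 without that pool. In Tlr1, Tlr9 and Tlr13 the log2 fold changes were 0.03, 0.01 and -0.05, and -0.27, -0.17 and -0.24 without it. In Tlr8 only control 1 lay above the lowest tamoxifen pool, at 64.6, 57.2 and 55.4 in controls and 64.8, 77.9 and 64.2 after tamoxifen (unadjusted p = 0.0841). Tlr5, the flagellin receptor, was dim, at 28.6 to 40.1 in all pools, below the value of 41.7 of the 25th percentile of probesets, and had a log2 fold change of -0.21. The median over the 13 receptors was 0.02, and -0.11 without tamoxifen 2.

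The 11 measured adaptors and kinases were split, with 6 above and 5 below control and a median log2 fold change of 0.01. Irak3, which encodes a kinase-dead member of the IRAK family that dampens receptor signaling, had the largest difference. It was at 963, 1359 and 1365 in controls and at 1637, 1664 and 1639 after tamoxifen, so the tamoxifen pools were nearly equal and above every control. The log2 fold change was 0.44 (SE 0.15, unadjusted p = 0.0215, adjusted p = 0.317 from limma), and it was 0.27 without control 1, the lowest pool. Irak2, a kinase that sustains signaling downstream of MyD88, was at 507, 533 and 572 in controls and at 634, 599 and 641 after tamoxifen. These groups did not overlap either (log2 fold change 0.22, SE 0.08, unadjusted p = 0.0259, adjusted p = 0.333).
The adaptor genes themselves were near control. Myd88, the adaptor shared by most of the receptors, was at 2131, 2240 and 2139 in controls and 2405, 2187 and 2395 after tamoxifen (log2 fold change 0.10, 95% interval -0.07 to 0.27). Ticam1, which encodes TRIF, was at 286, 256 and 248 in controls and 243, 252 and 232 after tamoxifen (log2 fold change -0.12, interval -0.31 to 0.08). Traf1, a TRAF protein that is itself induced by NF-kappaB, was at 276, 324 and 310 in controls and 332, 467 and 312 after tamoxifen, with tamoxifen 2 the highest, and its log2 fold change of 0.27 was 0.09 without that pool. The ubiquitin ligase genes Traf6 and Traf2 had log2 fold changes of -0.07 and 0.04, and the groups of Traf2 did not overlap at 461 to 472 in controls and 474 to 480 after tamoxifen. Log2 fold changes were -0.15 in Irak1, the kinase recruited next to MyD88 (-0.01 without control 1), -0.04 in Ikbkb, the catalytic IkB kinase, -0.14 in its relative Ikbke and 0.01 in Tbk1, the kinase of the interferon arm. The groups overlapped in all of these.

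Of the NF-kappaB subunits, Rel, which encodes c-Rel, had the largest difference. Its intensity was 1832, 2102 and 2051 in controls and 2208, 2992 and 2312 after tamoxifen. The groups did not overlap, tamoxifen 2 stood well above the other pools, and the log2 fold change was 0.32 (SE 0.13, unadjusted p = 0.0519, adjusted p = 0.406 from limma) or 0.18 without tamoxifen 2. Rela, the p65 subunit of the classical dimer, was at 3671, 3676 and 3670 in controls and at 3843, 3884 and 3895 after tamoxifen. The pools within each group were close together and the groups were apart, by a fold of 1.05 (log2 fold change 0.08, unadjusted p = 0.243, adjusted p = 0.682), since limma steadies the small variance of such a gene with that of all others. Nfkb2, the precursor of the subunit of the alternative pathway, was at 1090, 1183 and 1194 in controls and 1221, 1276 and 1163 after tamoxifen, and these overlapped.

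All 7 IkB and feedback genes had a positive log2 fold change, from 0.10 to 0.38 with a median of 0.20. In 5 of them the tamoxifen pools lay above all controls, beside 9.79% of all probesets, and 4 were at an unadjusted p under 0.05, beside 6.55%. Tnfaip3, a ubiquitin-editing enzyme that shuts off signaling at the level of the TRAF proteins and the IkB kinase complex, was at 1340, 1265 and 1346 in controls and at 1736, 1883 and 1532 after tamoxifen. The lowest tamoxifen pool lay above the highest control, with a fold of 1.30 (log2 fold change 0.38, SE 0.09, unadjusted p = 0.00612, adjusted p = 0.209 from limma). Nfkbia, which encodes IkB alpha, the main inhibitor that holds the classical dimer in the cytoplasm, was at 5942, 6177 and 6474 in controls and at 8001, 7297 and 7390 after tamoxifen. That is a fold of 1.22 (log2 fold change 0.29, SE 0.07, unadjusted p = 0.00728, adjusted p = 0.221). Nfkbiz, a nuclear IkB protein that acts as a cofactor at secondary response genes, was at 1941, 2030 and 2099 in controls and 2521, 2402 and 2373 after tamoxifen, a fold of 1.20 (unadjusted p = 0.0073, adjusted p = 0.221). Tnfaip3, Nfkbia and Nfkbiz kept an unadjusted p under 0.05 with each of the 6 pools left out.
Nfkbib, which encodes IkB beta, was at 1516, 1503 and 1497 in controls and 1662, 1688 and 1656 after tamoxifen, a narrow but complete separation with a fold of 1.11 (unadjusted p = 0.0462, adjusted p = 0.396). Tnip1, which encodes a ubiquitin-binding partner of the Tnfaip3 protein, was at 685, 679 and 680 in controls and 839, 824 and 694 after tamoxifen. The controls of Tnip1 were close together, and tamoxifen 3 lay near them (unadjusted p = 0.0675). Nfkbie, IkB epsilon, was at 1057, 925 and 956 in controls and 1090, 1219 and 1021 after tamoxifen, and Birc3, a ubiquitin ligase of the TNF receptor complex that NF-kappaB induces, was at 3265, 3380 and 3443 against 3327, 4020 and 3465. The groups of both overlapped, and without tamoxifen 2 their log2 fold changes of 0.18 and 0.10 were 0.11 and 0.01.

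Because these 7 genes lay on the same side of control, their promoters were searched for the NF-kappaB consensus, by name the kappaB motif of 10 bases, on both strands and with overlapping matches counted, in the RefSeq window of 250 bases before to 50 after each start site (GRCm38.p6). Promoters were found for 37 of the 45 genes, and 10 of these (27.0%) held at least 1 match, beside 5.14% of 27025 genes with a promoter in the same table. Among the IkB and feedback genes 4 of 6 with a promoter held it, and so did 2 of the 3 NF-kappaB subunits, 2 of 8 receptors and 2 of 6 cytosolic sensors, whereas 0 of 10 adaptors and kinases and 0 of 4 targets did. Of the genes in any role that were higher at an unadjusted p under 0.05 by limma, 7 had a promoter and 2 of these (28.6%) held a match. The 250 bases before the start site are printed for the 4 feedback genes, 5′ to 3′ on the strand of the gene, with the matches in capitals. They lie at chr12:55492648-55492897 (minus strand), chr17:45555450-45555699 (plus strand), chr10:19015411-19015660 (minus strand) and chr11:54962941-54963190 (minus strand). A match is a description of the letters and was not tested for binding.
Nfkbia: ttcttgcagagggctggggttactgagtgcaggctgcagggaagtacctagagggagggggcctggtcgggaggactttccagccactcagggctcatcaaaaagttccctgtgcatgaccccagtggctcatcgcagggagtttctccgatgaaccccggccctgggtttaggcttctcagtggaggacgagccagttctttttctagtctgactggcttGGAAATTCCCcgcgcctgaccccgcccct
Nfkbie: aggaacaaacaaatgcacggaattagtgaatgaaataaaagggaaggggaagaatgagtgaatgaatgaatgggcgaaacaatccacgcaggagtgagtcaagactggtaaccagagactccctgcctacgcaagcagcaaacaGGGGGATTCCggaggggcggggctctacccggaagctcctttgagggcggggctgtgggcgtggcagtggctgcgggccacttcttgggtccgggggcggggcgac
Tnfaip3: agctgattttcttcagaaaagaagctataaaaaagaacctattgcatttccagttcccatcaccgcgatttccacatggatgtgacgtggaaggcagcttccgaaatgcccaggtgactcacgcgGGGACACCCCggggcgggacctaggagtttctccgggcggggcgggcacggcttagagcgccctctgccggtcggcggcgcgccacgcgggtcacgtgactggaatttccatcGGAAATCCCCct
Tnip1: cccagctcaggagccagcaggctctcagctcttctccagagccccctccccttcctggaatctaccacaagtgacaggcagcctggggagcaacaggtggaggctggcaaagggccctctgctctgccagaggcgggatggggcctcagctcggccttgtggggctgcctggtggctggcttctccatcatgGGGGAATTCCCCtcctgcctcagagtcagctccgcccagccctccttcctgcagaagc
In Nfkbia the match begins 29 bases before the start site and in Nfkbie 106 bases before it. Tnfaip3 holds 2 separate matches, of which the nearer begins 12 bases before the start, and in Tnip1 the capitals hold 3 overlapping matches. Nfkbib and Birc3 held 0 matches, and Nfkbiz was not searched. A second promoter of Tnfaip3 in the table held 0 matches. Matches were also found in Nfkb2, Rel, Tlr2, Tlr3, Casp4 and Nlrp3, which had log2 fold changes of 0.08, 0.32, 0.04, -0.26, 0.13 and -0.02, so a match went with differences of either sign.

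**Figure D2:**
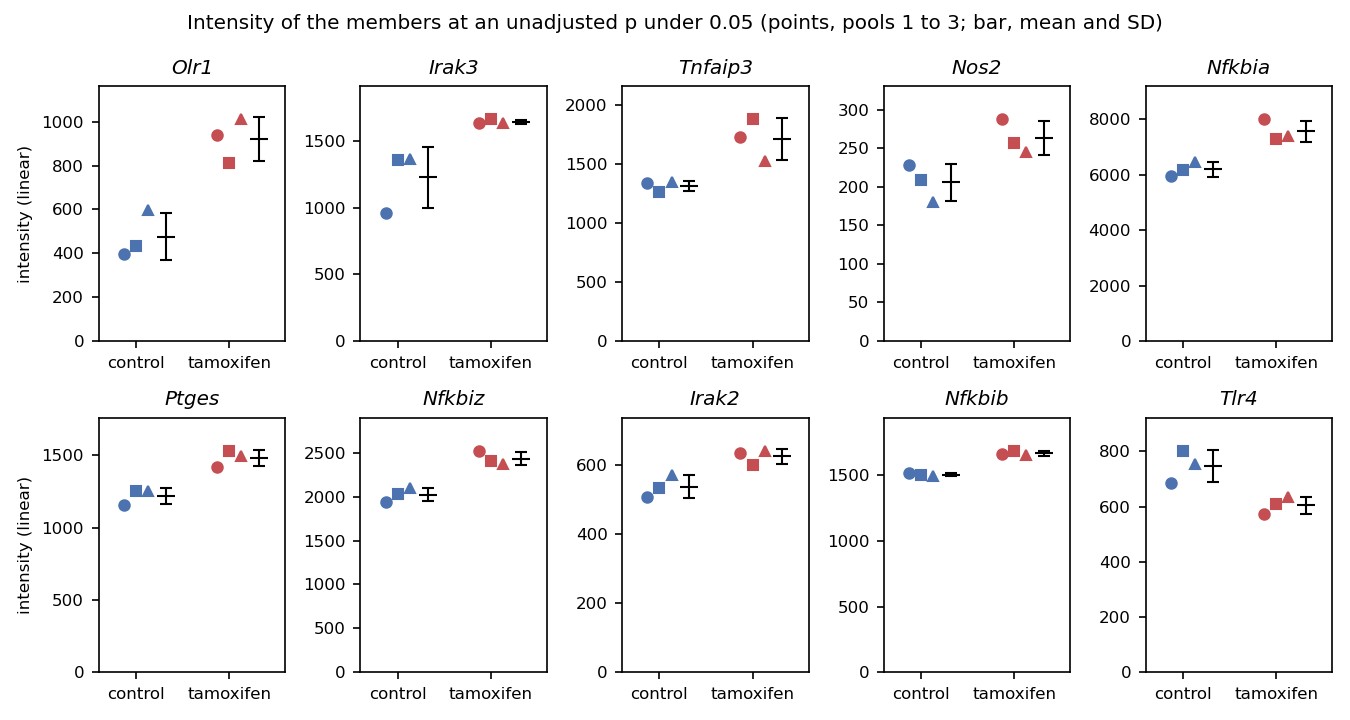
Linear intensity (y axis, from 0) of the 10 genes at an unadjusted p under 0.05 in the 3 control pools (blue) and the 3 tamoxifen pools (red), with the mean and SD of each group as a black bar (n = 3 pools). The groups do not overlap in any of the 10, and Tlr4 is the 1 gene that is lower after tamoxifen.

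All 5 measured targets had a positive log2 fold change, with a median of 0.36 that was 0.24 without control 1. Olr1 encodes a scavenger receptor for oxidised low density lipoprotein that NF-kappaB induces in endothelium and macrophages, and the study also picked it as changed from these arrays. It was at 398, 433 and 599 in controls and at 938, 813 and 1012 after tamoxifen. The lowest tamoxifen pool lay well above control 3, the highest control, and the group means were 476 ± 107 and 921 ± 100 (SD, n = 3 pools). The fold was 1.96 (log2 fold change 0.97, SE 0.17, 95% interval 0.56 to 1.38, unadjusted p = 0.00108, adjusted p = 0.105 from limma). It did not pass as fitted, but passed with array weights (adjusted p = 0.0357) and among probesets above the median intensity (adjusted p = 0.0468), with a range up to 0.329 over the alternatives.
Among the enzymes, Ptges, the inducible prostaglandin E synthase, was at 1154, 1251 and 1249 in controls and 1418, 1530 and 1492 after tamoxifen. The groups were apart by a fold of 1.22 (log2 fold change 0.28, SE 0.07, unadjusted p = 0.00702, adjusted p = 0.218). Ptgs2, the inducible cyclooxygenase that supplies its substrate, was at 2066, 3062 and 3171 in controls and 3267, 4642 and 3092 after tamoxifen. Control 1 was the lowest and tamoxifen 2 the highest, the groups overlapped, and the log2 fold change of 0.41 had an interval of -0.13 to 0.95 and a value of 0.03 without both of these pools. Nos2, the inducible nitric oxide synthase, was at 228, 209 and 181 in controls and 288, 257 and 246 after tamoxifen (fold 1.28, unadjusted p = 0.0164, adjusted p = 0.292). Saa3, an acute phase serum amyloid gene, was at 57.1, 60.5 and 55.1 in controls and 74.6, 49.8 and 74.5 after tamoxifen. Here tamoxifen 2 was the lowest of all pools. The log2 fold change of Saa3 was 0.18 with all pools (unadjusted p = 0.324, adjusted p = 0.744 from limma). Without tamoxifen 2 it was 0.37 (unadjusted p = 0.00328 from limma), and the lowest adjusted p over the planned settings was 0.179.

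The cytosolic sensors and inflammasome genes were near control as a group, with a median log2 fold change of -0.02, 2 genes above and 4 below, and 0 at an unadjusted p under 0.05. Casp4, an inflammatory caspase that detects intracellular lipopolysaccharide, was at 1501, 1900 and 1677 in controls and 1806, 2016 and 1722 after tamoxifen (log2 fold change 0.13). Pycard, the adaptor that links sensors to caspases, was at 203, 142 and 127 in controls and 144, 146 and 99.3 after tamoxifen, a log2 fold change of -0.27 that was -0.07 without control 1. Casp1, the caspase that matures interleukin 1 beta, was at 309, 252 and 202 in controls and 186, 277 and 199 after tamoxifen. Both genes were highest in control 1, their groups overlapped, and the log2 fold change of Casp1 was -0.21, or -0.05 without control 1. Nlrp3, the sensor of the best known inflammasome, was at 247 to 259 in controls and 219 to 271 after tamoxifen. The peptidoglycan sensors Nod1 and Nod2 had log2 fold changes of -0.03 and 0.15.

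Other genes of the pathway and other targets of NF-kappaB, outside the 51, are given as a description. Of 38 measured further genes of the pathway, 17 lay above and 21 below control with a median log2 fold change of -0.02, and 0 passed the adjusted threshold. At an unadjusted p under 0.05, 3 of them lay above (7.89%, beside 6.55% of all probesets) and 2 below (beside 5.87%), so both counts were near those shares. The counts became 1 and 0 without control 1 or without control 2, and 2 and 0 without tamoxifen 3. They were 2 and 1 without tamoxifen 1, and 1 and 5 without tamoxifen 2. Peli1, a ubiquitin ligase that acts on IRAK kinases, was at 1401, 1436 and 1475 in controls and 1654, 1901 and 1607 after tamoxifen, and Traf4 was at 795, 669 and 609 against 529, 590 and 504 (adjusted p = 0.326 and 0.334 from limma). Both pairs of groups were apart, in opposite directions. Of 32 measured further target genes of NF-kappaB, 26 lay above and 6 below, with a median of 0.38. None passed the adjusted threshold (0 in each direction by limma). An unadjusted p under 0.05 was found for 18 higher genes (56.2%, beside 6.55% of all probesets) and 0 lower ones (beside 5.87%). The lower ones were 3 without control 3, 2 with array weights, 2 with the replicate number as a block and 1 without tamoxifen 2. The 3 tamoxifen pools lay above all controls in 20 (62.5%, beside 9.79%). Without control 1 and tamoxifen 2 together, which was tried after seeing the data, 18 were higher and the median was 0.27. Tnf, the cytokine that itself activates NF-kappaB, had the smallest p of that list, at 1322, 1295 and 1324 in controls and 1786, 2031 and 1880 after tamoxifen (adjusted p = 0.061 from limma). Ccl3, a macrophage chemokine, was at 3368, 3385 and 3647 against 4764, 5583 and 5072 (adjusted p = 0.0739). In each, the lowest tamoxifen pool was above the highest control by more than the range of the controls. The list of targets includes cytokines already known to be higher in these arrays when it was written, so its counts and median follow from that choice and say nothing further about the 45 genes.

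**Figure D3:**
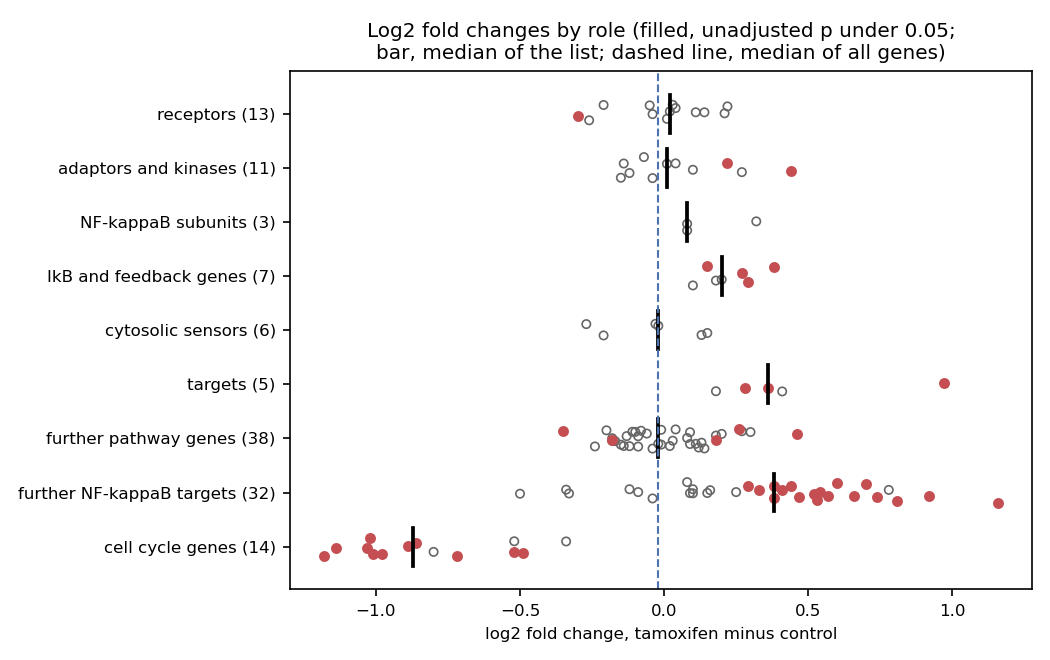
Log2 fold change (x axis, tamoxifen minus control) of each gene by role, with the number of genes in brackets. Filled points are at an unadjusted p under 0.05, black bars are medians and the dashed line is the median of all genes at -0.02. The medians are 0.20 for IkB and feedback genes and 0.36 for targets, against 0.02 for receptors and -0.87 for cell cycle genes (-0.51 without control 1). The median of 0.38 for further targets follows from a list that includes cytokines already known to be higher in these arrays.

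The pools of a group differed in their content of immune transcripts, and 6 receptors were highest in the pool where lymphocyte markers were highest. Tamoxifen 2 held the highest value of 19 of the 45 genes (42.2%), against 14.9% of all genes, among them Tlr1, Tlr6, Tlr7, Tlr8, Tlr9 and Tlr13 and also Rel, Traf1, Ptgs2 and Tnfaip3. The 6 measured T cell markers were on average 1.07 log2 units above the control mean in this pool and -0.10 and -0.44 in the other tamoxifen pools, and the 5 B cell markers were at 1.05 against -0.40 and -0.80. The 6 dendritic cell markers stood at 0.71 in it, against 0.08 and -0.19, and the 9 macrophage markers at 0.37, against 0.12 and -0.12. Summed intensity of the macrophage markers was 2899 to 3019 in controls and 2737 to 4117 after tamoxifen, that of the T cell markers 1988 to 2263 and 1597 to 4597, and that of the B cell markers 1165 to 2378 and 879 to 3405. Of the macrophage markers 6 were above and 3 below control. In either direction 0 were at an unadjusted p under 0.05, beside 6.55% of all probesets higher and 5.87% lower. The part of these cells in the receptor values was not tested.
The IkB, feedback and target genes were above the control mean on average in all 3 tamoxifen pools. On average over the 7 IkB and feedback genes the tamoxifen pools stood at 0.24, 0.29 and 0.14 log2 units above the control mean, and over the 5 targets at 0.47, 0.40 and 0.45. Without tamoxifen 2 the medians were 0.16 for IkB and feedback genes and 0.37 for targets, and without control 1 they were 0.23 and 0.24. The 10 neutrophil markers averaged 0.11, 0.13 and 0.03 log2 units above the control mean in tamoxifen 1, 2 and 3. However, 4 of them lay above and 6 below control, with a median log2 fold change of -0.01. Their summed intensities were 3246 to 5366 in controls and 6192 to 6443 after tamoxifen, mostly from Ltf. Ltf was at 2855, 4943 and 3103 in controls and 5756, 5714 and 6046 after tamoxifen. It was the 1 neutrophil marker higher at an unadjusted p under 0.05, and 0 were lower, beside 6.55% and 5.87% of all probesets. Ly6g and Retnlg of the same list were dim in all pools, at 8.98 to 14.1 and 20.2 to 28.7. Both were below the value of 41.7 of the 25th percentile of probesets. Which cells the Ltf transcripts came from was not tested. Mast cell, endothelial and adipocyte markers also averaged above the control mean in all 3 tamoxifen pools, at 0.24, 0.19 and 0.32, at 0.26, 0.17 and 0.20, and at 0.36, 0.12 and 0.47 log2 units. At an unadjusted p under 0.05, 3 of 6 mast cell, 2 of 7 endothelial and 3 of 6 adipocyte markers were higher, beside 6.55% of all probesets. Of these markers 0 were lower, beside 5.87%. Their summed intensities were 2594 to 3380, 11490 to 13550 and 1677 to 1852 in controls and 3100 to 3446, 14380 to 15020 and 1873 to 2293 after tamoxifen. The mast cell sums take in Kit, the 1 mast cell marker with a negative log2 fold change (-0.10). Kit was at 2108, 1306 and 1349 in controls and 1439, 1363 and 1552 after tamoxifen. The part of neutrophils, mast cells, endothelium and adipocytes in the higher values of the target genes was not tested. Control 1 stood apart on cell cycle genes, 0.63 log2 units above the control mean beside -0.22 and -0.41 in the other controls, and it was the lowest pool for 16 of the 45 genes, Olr1, Nfkbia, Nfkbiz, Ptges, Irak2 and Irak3 among them, and for 3524 of 17418 genes in all. Without control 1 the median log2 fold change of the cell cycle genes was -0.51 in place of -0.87. Of 14 cell cycle genes, 11 were lower at an unadjusted p under 0.05, beside 5.87% of all probesets. This count was 7 without tamoxifen 1 and 4 without tamoxifen 3 or by the methods' t-test. The 6 measured luminal markers summed to 31190 to 31550 in controls and 28550 to 30170 after tamoxifen, and all had a negative log2 fold change. Of these, 1, Elf5, was lower at an unadjusted p under 0.05, beside 5.87% of all probesets. The 7 basal markers summed to 13170 to 15440 and 13590 to 14370, with 4 above and 3 below control. Myh11 and Mylk were higher at an unadjusted p under 0.05, beside 6.55% of all probesets, and 0 were lower, beside 5.87%. The tamoxifen pools of these 2 lay above all controls, beside 9.79% of all probesets. Those of 2 others, Krt5 and Krt14, lay below all controls, beside 11.2%, with log2 fold changes of -0.29 and -0.14. The 2 genes with the smallest p were Itgam and Mrc1 for macrophages, Cd2 and Cd3d for T cells, Cd79b and Cd79a for B cells, and Cd209a and Zbtb46 for dendritic cells. They were Fcer1a and Cpa3 for mast cells, Tek and Vwf for endothelium, Cidec and Lep for adipocytes, Ltf and S100a9 for neutrophils, Elf5 and Gata3 for luminal and Myh11 and Mylk for basal cells, and Ube2c and Nusap1 for the cell cycle.

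**Figure D4:**
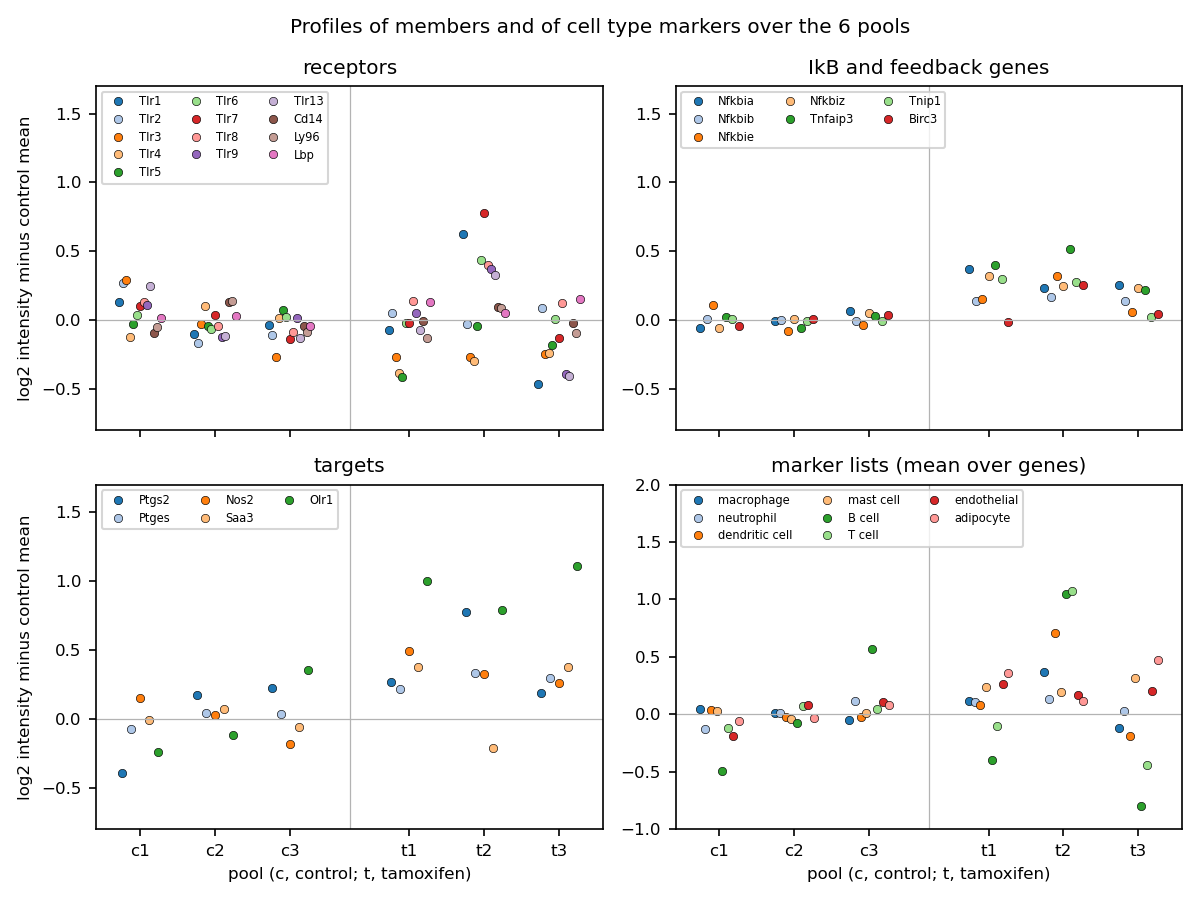
Log2 intensity minus the control mean (y axis) in control pools 1 to 3 (c1 to c3) and tamoxifen pools 1 to 3 (t1 to t3), for each receptor, each IkB or feedback gene, each target and, as means over genes, 8 lists of cell type markers. Several receptors and the B cell, T cell and dendritic cell lists peak in t2, whereas the IkB, feedback and target genes lie above the control mean in t1, t2 and t3, apart from Birc3 in t1 and Saa3 in t2.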

How the data were processed

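Total RNA of MECs from 3 control and 3 tamoxifen pools was hybridised to 1 Affymetrix mouse array each. The sources name an Exon ST and a Gene ST array and differ on the age of the hosts and on the mice per pool, which stays unknown here. The authors deposited linear intensities, 1 per probeset and pool, and MAS5 and mm9 appear in the submitters' processing notes without a role. Background correction and normalization: not given in the sources used here. Mean intensity was 395.1 to 403.4 per array, and the number of arrays limits the precision.

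Of 22369 probesets, 18286 had 1 gene symbol, 1276 several and 2807 none. Symbols were checked through Entrez IDs in the RefSeq gene table (GRCm38.p6), where 18097 matched and 0 changed, and the probeset with the highest mean stands for a gene. Values were analysed as log2 intensity, unfiltered and with nothing added. Groups were compared with limma 3.58.1 in R 4.3.3 on the whole table, and p-values were adjusted over all probesets at a threshold of 0.05. The fit was tried on simulated data, with changes larger than those of the 45 genes, so it does not cover differences of their size. Residual degrees of freedom were 4, and 2.35 came from the prior. The methods' t-test is the equal-variance test on the same values. The p-values measure the spread between these pools of mice. The genes, lists and roles were chosen with earlier results of these data known. All 45 genes are named; values in every pool are given for those past a threshold and for those with the highest mean intensity or the largest difference in each role. From each other list that is described, the 2 genes with the smallest p are named. Pool values of further members and the genes of the closing observations were added after values were seen. Alternatives were other tests, normalizations, filters and offsets, the replicate block and leaving out pools. Intensities of different probesets are not compared as levels. Plots used Python 3.11.15 and matplotlib 3.10.9.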

Additional observations from a re-analysis of the deposited data

How the results depend on the processing

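The 17 alternatives moved the counts of members by up to 3 genes. The members past an adjusted p of 0.05 by limma were 0 in each direction, except 1 higher gene, Olr1, with array weights and 1, again Olr1, among probesets above the median intensity, where fewer probesets were tested. At an unadjusted p under 0.05, 6 to 8 genes were higher with 1 pool left out (fewest without tamoxifen 1) and 8 to 12 in other settings. On the lower side the count was 1 to 2 with 1 pool left out, 2 with array weights, and 2 without control 1 and tamoxifen 2 together, a setting added after the data were seen. The second lower gene was Tlr3 without control 3 and Tlr5 in the other cases, without tamoxifen 2 included. The median log2 fold change of the 45 genes was 0.10 as fitted, 0.04 with array weights, 0.05 to 0.12 with 1 pool left out, lowest without tamoxifen 2, and 0.01 without control 1 and tamoxifen 2 together. The cause of these shifts was not tested. The direction changed in at least 1 alternative for 14 of the 45 genes, 0 of them among those at an unadjusted p under 0.05. All genes have 1 probeset, so averaging probesets changes nothing.

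Control and tamoxifen pools share replicate numbers, but pools of the same number did not deviate together (correlations of 0.0541, 0.0072 and -0.0424), so they share only a number. With the replicate number as a block, 0 genes passed the adjusted threshold, the unadjusted one had 8 above and 1 below control, and the median was 0.10. No detection calls were used, so dim probesets such as Tlr5 cannot be told from background, and with 32 added to each intensity its log2 fold change was -0.11.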

Other observations

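Values of 5 genes of interleukin 1 signaling, named after they were seen, are given as a description. Il1a, an alarmin of epithelium and macrophages, had the largest difference of the further target genes, at 708, 926 and 1042 in controls and 1621, 2439 and 1942 after tamoxifen (log2 fold change 1.16, adjusted p = 0.0958 from limma). Il1b, the secreted cytokine, was at 1484, 1550 and 1498 in controls and 1901, 2828 and 1696 after tamoxifen (log2 fold change 0.47, adjusted p = 0.392), with tamoxifen 2 the highest and no overlap of the groups. Il1r1, the signaling receptor, was at 1820, 2724 and 2776 in controls and 3360, 3441 and 3116 after tamoxifen (log2 fold change 0.46, adjusted p = 0.363), with control 1 far below the others. Il1rn, the secreted antagonist, was at 851, 933 and 676 in controls and 659, 734 and 563 after tamoxifen, and Il1rap, the receptor's accessory chain, at 217, 200 and 200 against 193, 170 and 182. Their log2 fold changes were -0.33 and -0.18, and neither passed (adjusted p = 0.459 and 0.435).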
